A study of Bos taurus with 8 samples.

Results

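T lymphocytes and natural killer (NK) cells were followed in the corpus luteum (CL) through 38 listed mRNA that these cells are known for. Members were the genes of the table whose symbol matched a listed name, ignoring case. Of the 38, 34 were found among 13861 genes and 4 were not analysed here (CD6, CTLA4, SKAP1 and WC1, the last a marker of bovine gamma delta T cells). Each of the 34 passed the filter on low values. GZMA was on 2 lines of the table, and the one with the higher mean was used.

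T cells recognize antigen through a receptor that passes its signal on through the CD3 chains. CD4 and CD8 assist that receptor on helper and cytotoxic T cells, and the kinases LCK and ZAP70 and the adapter LAT carry the signal into the cell. NK cells and cytotoxic T cells kill their targets with perforin and granzymes. Lymphocytes reside in the CL together with macrophages, endothelial cells and the steroidogenic cells that make progesterone. On the days when a cyclic CL begins to regress, the CL of pregnancy is kept.

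RNA came from snap frozen CL of 8 Holstein heifers, collected at slaughter on day 17 after estrus. The 4 cyclic heifers were not bred, and the 4 pregnant heifers were bred and carried a pregnancy at that time. Replicates 1 to 4 of the cyclic group and 1, 2, 4 and 5 of the pregnant group are separate animals, with no agent or genetic change named for either group. The comparison asks how abundant T and NK cell mRNA were in the CL of pregnancy relative to the CL of the estrous cycle.

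The table gives normalized counts, the reads of a gene divided by 1 factor per CL, and the reads per CL ranged from 42770725 to 48294165. One read was worth 0.920 to 1.09 normalized counts, and no value in the table is 0. Transcript lengths were not used, so levels are compared between CL and not between genes. In whole tissue, fewer cells of a type and less RNA per cell cannot be told apart. The summed level of 8 steroidogenic markers was 1501620 to 1783562 normalized counts in the cyclic CL and 1609578 to 2337376 in the pregnant CL, and none of the 8 had fewer than 6722 reads in any CL.

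In the CL of pregnancy, group means were higher than in the cyclic CL for 33 of the 34 members, but no member passed the test. The test was limma on log2(normalized count + 1) with Benjamini-Hochberg adjustment over all genes, in which a change was called at an adjusted p under 0.05. Of all genes 0.0216% were called, 3 in all, and the adjusted p of the members ran from 0.491 to 0.984. At an unadjusted limma p under 0.05, 9 members were higher in pregnancy (LAT, CD69, LCK, CD8B, UBASH3A, CD2, CD8A, CD3E and CD3G), or 26.5% of the 34, and 0 were lower. Over all genes 3.66% were higher and 3.85% were lower at that level. The members were chosen with earlier results of these data known, so contrasts with all genes, here and below, are descriptive only. The count of members at that level was 16 with cyclic replicate 4 left out and 6 with cyclic replicate 1 left out. The share over all genes was not counted in those fits. Among other tests, edgeR and limma-voom called none of the members and DESeq2 called 1, LAT. By edgeR and by DESeq2 on recovered reads 7 members (20.6%) were higher in pregnancy at an unadjusted p under 0.05. Of all genes 3.82% by edgeR and 4.44% by DESeq2 were higher at that level.

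The log2 fold change of pregnant over cyclic CL was above 0 in 31 members (91.2%), where all genes gave 50.1%. Its median over the members was 0.44, against 0.00 over all genes, and leaving out cyclic replicate 1 gave 0.30 and leaving out cyclic replicate 4 gave 0.56. Genes expressed by the same cells are not independent observations of pregnancy. In 5 members (LAT, CD69, CD8B, UBASH3A and CD2) every pregnant CL was above every cyclic CL, or 14.7% of the members against 2.03% of all genes. In no member was every pregnant CL below every cyclic CL, where all genes gave 2.27%.

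**Figure D1:**
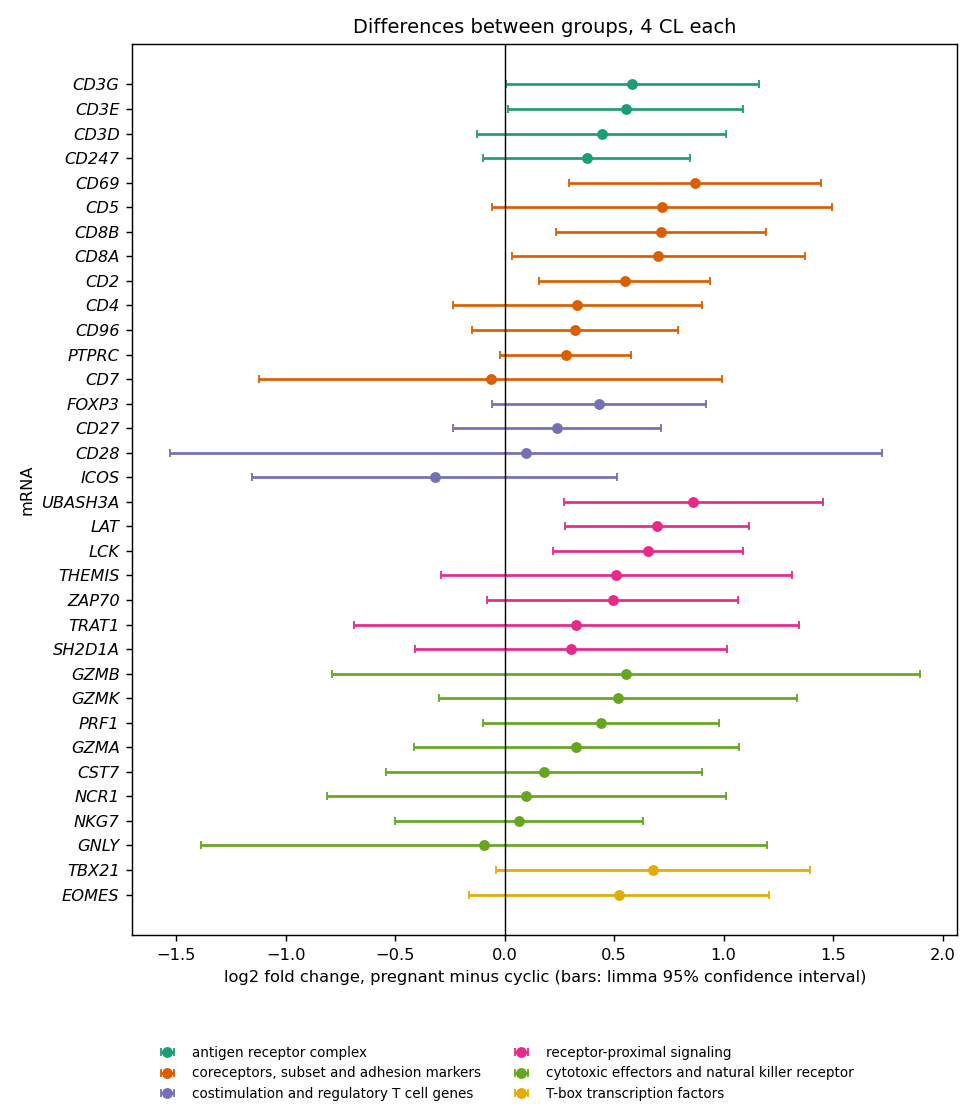
Log2 fold change (horizontal axis, pregnant minus cyclic, with the 95% confidence interval from limma as bars) of each of the 34 mRNA (vertical axis), colored and grouped by role, from 4 CL in each group. Of the points 31 lie to the right of 0 and 3 to the left, and the intervals of 9 mRNA lie wholly above 0.

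The CL differed among themselves within each group. Cyclic replicate 1 had the lowest level of all 8 CL in 21 of the 34 members, and its members lay at a median of -0.59 on the log2 scale from their mean over the 8 CL. Cyclic replicate 4 was the opposite within its group. It had the highest cyclic level in 24 members, and the median of its members was 0.21 above the mean of the 8 CL. The other cyclic CL had medians of -0.33 (replicate 2) and -0.17 (replicate 3). In the pregnant CL these medians were 0.13, 0.20, 0.44 and 0.22 for replicates 1, 2, 4 and 5. Pregnant replicate 4 had the highest level of all 8 CL in 17 members. Summed over the 34 members, the level ran from 5180 to 8643 normalized counts in the cyclic CL and from 8431 to 10566 in the pregnant CL, so that the groups overlapped through cyclic replicate 4.

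**Figure D2:**
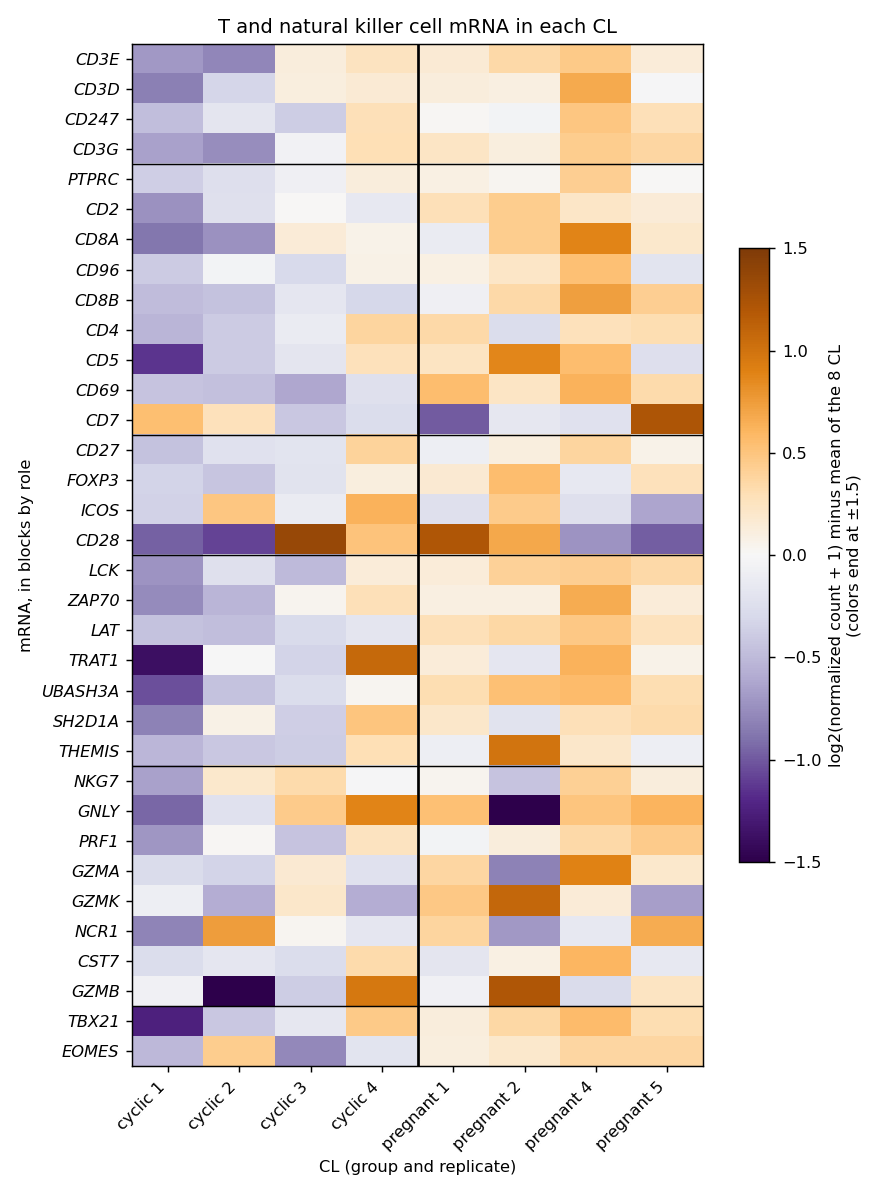
Level of each of the 34 mRNA (vertical axis, in blocks by role) in each CL (horizontal axis), as log2(normalized count + 1) minus its mean over the 8 CL, with orange above and purple below that mean and colors ending at ±1.5. Cyclic replicate 1, at the left, was lowest of the 8 CL in 21 mRNA, and pregnant replicate 4 was highest in 17.

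The CD3 and zeta genes encode the signaling chains of the T cell antigen receptor complex, and 4 of 4 had a log2 fold change above 0, with a median of 0.50. Their summed level was 857 to 1617 normalized counts in the cyclic CL and 1496 to 1946 in the pregnant CL. CD3E (ENSBTAG00000015710), the epsilon chain, had 405, 379, 716 and 782 normalized counts in cyclic replicates 1 to 4 and 734, 833, 903 and 722 in pregnant replicates 1, 2, 4 and 5. Values of other genes follow in the same order of replicates. Cyclic replicates 1 and 2 were low, while cyclic replicates 3 and 4 lay among the pregnant CL or just under them. Its means were 570.5 ± 208 (SD, n = 4) and 798 ± 86.0 (SD, n = 4), for a log2 fold change of 0.55 (limma adjusted p = 0.647, SE 0.24).

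CD3G (ENSBTAG00000006453), the gamma chain, had 100, 92.7, 151 and 193 normalized counts in the cyclic CL and 185, 170.2, 214 and 204 in the pregnant CL. Again only cyclic replicate 4 was above a pregnant CL. Its log2 fold change was 0.58 (limma adjusted p = 0.659, SE 0.26). CD3D (ENSBTAG00000006452), the delta chain, had 157, 223, 301 and 312 in the cyclic CL and 304, 299.6, 448 and 276 in the pregnant CL. Pregnant replicate 4 stood above the rest, and the other pregnant CL lay within the cyclic range. CD3D had a log2 fold change of 0.44 (limma adjusted p = 0.711, SE 0.25). CD247 (ENSBTAG00000012700), the zeta chain that NK cells also use, ranged from 195 to 329.8 in the cyclic CL and from 263 to 379.9 in the pregnant CL, a log2 fold change of 0.37 (limma adjusted p = 0.708, SE 0.21). CD3E, CD3D and CD3G lie next to each other in the genome.

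Coreceptors, subset markers and adhesion molecules made up 9 members, of which 8 had a log2 fold change above 0, with a median of 0.55. Their summed level was 2525 to 3659 normalized counts in the cyclic CL and 3669 to 4754 in the pregnant CL. The ranges nearly touched, and how often sums of other genes lie apart was not counted. Most of the sum is PTPRC (ENSBTAG00000023144), the phosphatase CD45 that all leukocytes carry, whose own groups overlapped. PTPRC had 1662, 1810.1, 2029 and 2331 normalized counts in the cyclic CL and 2273, 2184, 2880.4 and 2153 in the pregnant CL. Pregnant replicate 4 was high, and cyclic replicate 4 exceeded the other 3 pregnant CL. The log2 fold change of PTPRC was 0.28 (limma adjusted p = 0.668, SE 0.13).

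CD69 (ENSBTAG00000002135), a membrane protein that appears early in lymphocyte activation and holds lymphocytes in tissue, had 30.4, 29.9, 26.7 and 35.3 normalized counts in the cyclic CL and 61.4, 48.8, 64.4 and 52.7 in the pregnant CL. The groups were well apart, with the lowest pregnant CL above the highest cyclic CL. The means were 30.6 ± 3.57 (SD, n = 4) and 56.8 ± 7.31 (SD, n = 4), a ratio of 1.86 and a log2 fold change of 0.87 (limma adjusted p = 0.542, SE 0.26). CD69 had 27 to 70 reads in a CL.

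CD2 (ENSBTAG00000017256), an adhesion receptor of T and NK cells, had 268, 379.6, 447 and 403 normalized counts in the cyclic CL and 546, 606, 518 and 493 in the pregnant CL. The groups did not overlap. For CD2 the log2 fold change was 0.55 (limma adjusted p = 0.576, SE 0.18).

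CD8A and CD8B encode the 2 chains of CD8, the coreceptor of cytotoxic T cells, and are neighbours in the genome. CD8B (ENSBTAG00000008956), the beta chain, had 112, 115, 140.3 and 127 normalized counts in the cyclic CL and 149.6, 201, 262 and 213 in the pregnant CL. No pregnant CL fell within the narrow cyclic range. The means of CD8B were 123 ± 12.9 (SD, n = 4) and 206 ± 46.2 (SD, n = 4), with a log2 fold change of 0.71 (limma adjusted p = 0.542, SE 0.21). CD8A (ENSBTAG00000021141), the alpha chain, had 122, 134, 248 and 234 in the cyclic CL and 206, 305, 415 and 257 in the pregnant CL. Pregnant replicate 1 lay below cyclic replicates 3 and 4, so these groups overlapped. CD8A had a log2 fold change of 0.70 (limma adjusted p = 0.644, SE 0.30).

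CD4 (ENSBTAG00000003255), the coreceptor of helper T cells, had 97.8, 108, 130.5 and 185 normalized counts in the cyclic CL and 180.3, 118, 172 and 176 in the pregnant CL. Cyclic replicate 4 was the highest of all 8 CL and pregnant replicate 2 stood below the other pregnant CL. The log2 fold change of CD4 was 0.33 (95% confidence interval -0.24 to 0.90, limma adjusted p = 0.772). CD5 (ENSBTAG00000013730), which dampens receptor signaling, ranged from 46.7 to 127 in the cyclic CL and from 88.1 to 192 in the pregnant CL (log2 fold change 0.72, SE 0.35, limma adjusted p = 0.668). CD96 (ENSBTAG00000014441), a receptor of T and NK cells for nectins, ranged from 137 to 189 and from 157 to 259 (0.32, SE 0.21, limma adjusted p = 0.740). CD7 (ENSBTAG00000011359), an early marker of T and NK cells, was the exception to the direction of the group, at 24.7 to 48.9 in the cyclic CL and 16.3 to 79.5 in the pregnant CL. For CD7 the log2 fold change was -0.06 (limma adjusted p = 0.984, SE 0.47) while its mean was higher in pregnancy through pregnant replicate 5, and edgeR and DESeq2 gave 0.12.

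**Figure D3:**
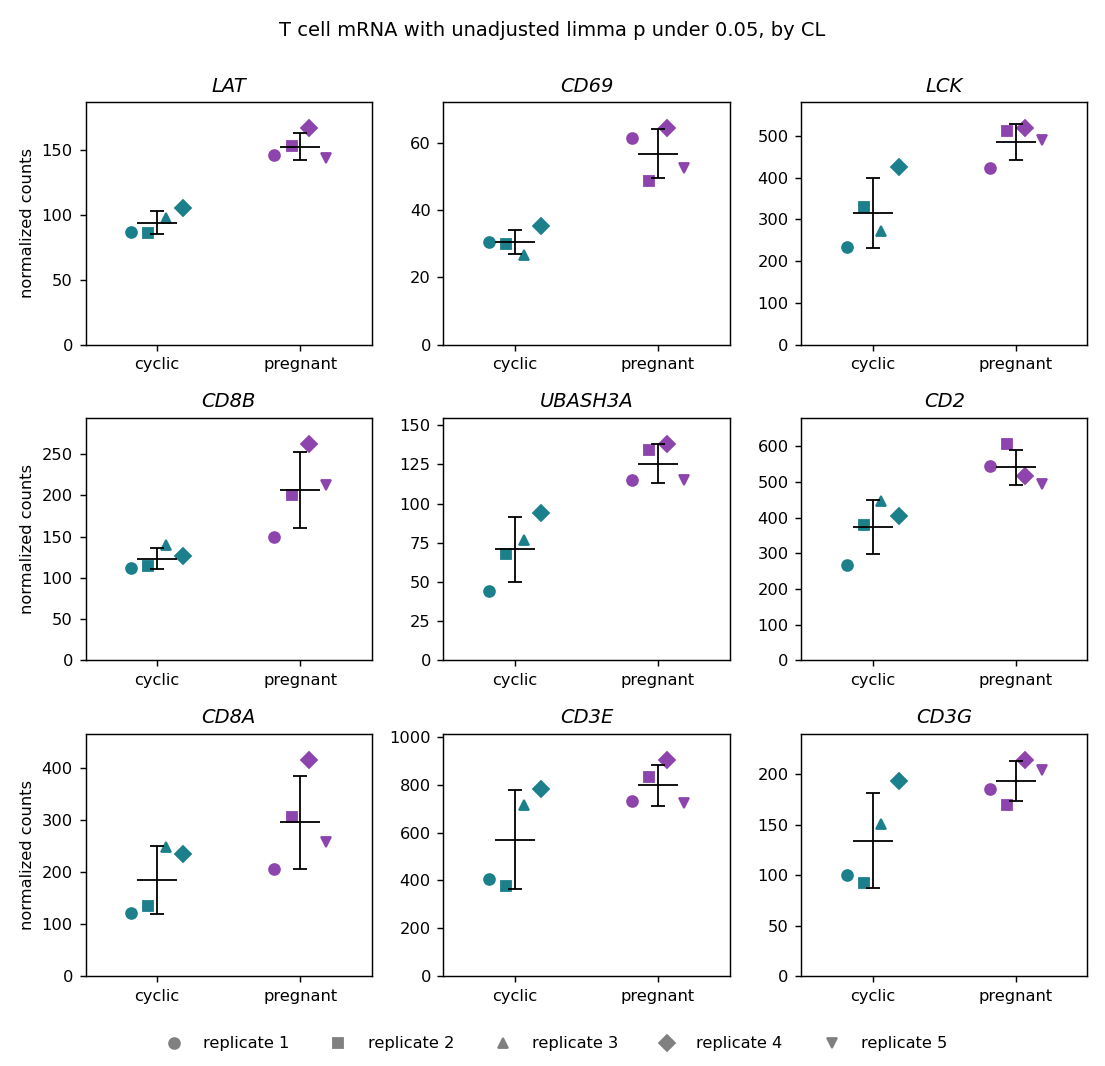
Normalized counts (vertical axes, starting at 0) of the 9 mRNA with an unadjusted limma p under 0.05, by group, with 1 symbol per CL and the mean and SD of 4 CL as bars. The groups do not overlap for LAT, CD69, CD8B, UBASH3A and CD2, whereas cyclic replicates reach the pregnant range for LCK, CD8A, CD3E and CD3G.

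Genes of signaling next to the receptor, 7 of 7, had a log2 fold change above 0, with a median of 0.51. Their summed level was 613 to 1276 normalized counts in the cyclic CL and 1176 to 1504 in the pregnant CL. LCK (ENSBTAG00000012695), the kinase bound to CD4 and CD8 that starts the signal, had 233, 329, 273 and 425 normalized counts in the cyclic CL and 422, 512, 518 and 490.1 in the pregnant CL. Only cyclic replicate 4 reached the pregnant range, by a narrow margin over pregnant replicate 1. The means of LCK were 315 ± 83.4 (SD, n = 4) and 485 ± 43.9 (SD, n = 4), a log2 fold change of 0.65 (limma adjusted p = 0.542, SE 0.20).

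ZAP70 (ENSBTAG00000005892), the kinase that binds the CD3 and zeta chains, had 158, 185, 278 and 329 normalized counts in the cyclic CL and 289, 289, 426 and 297 in the pregnant CL. Apart from pregnant replicate 4, the pregnant CL lay within the cyclic range. ZAP70 had a log2 fold change of 0.49 (limma adjusted p = 0.685, SE 0.26).

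LAT (ENSBTAG00000021249), the membrane adapter that ZAP70 phosphorylates, had 87.0, 86.0, 97.8 and 105 normalized counts in the cyclic CL and 146, 153, 167 and 144 in the pregnant CL. It had the smallest p of the members, with both groups tight and far from overlap. The means were 93.9 ± 9.13 (SD, n = 4) and 152 ± 10.2 (SD, n = 4), a ratio of 1.62. The log2 fold change of LAT was 0.69 (95% confidence interval 0.27 to 1.11), with a limma adjusted p of 0.491. By DESeq2 run on the recovered reads LAT passed (adjusted p = 0.0250), as 1 of the 94 genes (0.723%) called by that tool and the only member among them, while in edgeR the adjusted p was 0.486.

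UBASH3A (ENSBTAG00000023398), which restrains receptor signaling in T cells, had 44.6, 67.6, 77.1 and 94.2 normalized counts in the cyclic CL and 115, 134, 138 and 115 in the pregnant CL. The groups did not overlap although the cyclic CL were widely spread. For UBASH3A the log2 fold change was 0.86 (limma adjusted p = 0.550, SE 0.26). The remaining adapters and regulators were less far apart. TRAT1 (ENSBTAG00000000183), an adapter that stabilizes the receptor at the surface, ranged from 34.8 to 194 in the cyclic CL and from 81.6 to 143 in the pregnant CL, a log2 fold change of 0.33 (limma adjusted p = 0.883, SE 0.46), and leaving out cyclic replicate 1 gave -0.08. SH2D1A (ENSBTAG00000026067), the adapter SAP of the SLAM receptors, ranged from 37.0 to 93.2 and from 56.7 to 82.8, with a log2 fold change of 0.30 (limma adjusted p = 0.834, SE 0.32), which was 0.083 with cyclic replicate 1 left out and 0.52 with cyclic replicate 4 left out. THEMIS (ENSBTAG00000015615), which acts in the selection of T cells in the thymus, ranged from 19.6 to 35.3 and from 26.9 to 57.7, with a log2 fold change of 0.51 (limma adjusted p = 0.754, SE 0.36).

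Costimulatory and regulatory genes were spread around a median log2 fold change of 0.17, 3 of 4 above 0 and none with an unadjusted p under 0.05. FOXP3 (ENSBTAG00000013279), the transcription factor of regulatory T cells, had 119.6, 112, 131 and 163 normalized counts in the cyclic CL and 171, 223, 137 and 183 in the pregnant CL. Pregnant replicate 4, which was high in so many members, had the lowest FOXP3 of its group. FOXP3 had a log2 fold change of 0.43 (95% confidence interval -0.06 to 0.92, limma adjusted p = 0.684). CD27 (ENSBTAG00000014725), a costimulatory receptor of the TNF receptor family, had 176, 208, 212 and 317 in the cyclic CL and 228, 261, 316 and 254 in the pregnant CL. Cyclic replicate 4 was the highest of the 8, and the log2 fold change of CD27 was 0.24 (limma adjusted p = 0.805, SE 0.21). ICOS (ENSBTAG00000021596), the inducible costimulator, was the only member whose mean was lower in pregnancy, at 18.5 to 37.3 in the cyclic CL and 15.0 to 32.8 in the pregnant CL (log2 fold change -0.32, SE 0.37, limma adjusted p = 0.851). CD28 (ENSBTAG00000007445), the main costimulatory receptor, had 2 to 15 reads in a CL, too few to show a difference of moderate size (0.10, 95% confidence interval -1.53 to 1.72, limma adjusted p = 0.984).

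Cytotoxic effectors and the NK receptor NCR1 gave 8 members, 7 with a log2 fold change above 0 and a median of 0.25. None had an unadjusted p under 0.05, and in none did the groups stay apart. Whether this median differs from that of the receptor and signaling genes was not tested. Their summed level was 747 to 1241 normalized counts in the cyclic CL and 954 to 1515 in the pregnant CL. NKG7 (ENSBTAG00000009137), a protein of cytotoxic granules, had 203, 368, 405 and 318 normalized counts in the cyclic CL and 329, 236, 428 and 349 in the pregnant CL. The groups overlapped almost throughout. The log2 fold change of NKG7 was 0.07 (95% confidence interval -0.50 to 0.63, limma adjusted p = 0.966).

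PRF1 (ENSBTAG00000001008), perforin, which opens pores in target cells, had 126, 209.6, 152 and 247 normalized counts in the cyclic CL and 201, 225, 264 and 284 in the pregnant CL. Cyclic replicates 2 and 4 reached the pregnant range. For PRF1 the log2 fold change was 0.44 (limma adjusted p = 0.700, SE 0.24). GNLY (ENSNDHG00000413913), granulysin, a membrane-lysing peptide of the granules, had 96.7, 160.3, 256 and 346 in the cyclic CL and 270.5, 51.8, 263 and 286 in the pregnant CL. The lowest of the 8 CL was pregnant replicate 2 and the highest was cyclic replicate 4. GNLY had a log2 fold change of -0.09 (limma adjusted p = 0.981, SE 0.58), and it was 0.50 without pregnant replicate 2. Cattle carry several similar genes of this family, and whether reads were shared among them is not known.

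The granzymes, proteases that enter the target cell, also overlapped between groups. GZMB (ENSBTAG00000039813) had 7.61, 1.93, 5.93 and 16.7 normalized counts in the cyclic CL and 7.67, 19.9, 6.44 and 9.67 in the pregnant CL. With 2 to 20 reads in a CL, its log2 fold change of 0.55 had a 95% confidence interval of -0.79 to 1.90 (limma adjusted p = 0.841). GZMA (ENSBTAG00000021958) ranged from 140.1 to 199 in the cyclic CL and from 99.5 to 330.3 in the pregnant CL, a log2 fold change of 0.33 (limma adjusted p = 0.832, SE 0.33). Pregnant replicate 2 was the lowest of all 8 CL and the other 3 pregnant CL were above every cyclic CL. With that CL left out the log2 fold change of GZMA was 0.65, and with pregnant replicate 4 left out it was 0.079. The second GZMA identifier had 4 to 10 reads in a CL. GZMK (ENSBTAG00000005164) ranged from 82.1 to 142 in the cyclic CL and from 77.4 to 263 in the pregnant CL, a log2 fold change of 0.52 (limma adjusted p = 0.754, SE 0.37). For GZMK, in contrast to GZMA, pregnant replicate 2 was the highest CL.

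NCR1 (ENSBTAG00000045529), the activating receptor NKp46 and the defining NK cell marker of the list, had 29.3, 87.9, 53.4 and 46.1 normalized counts in the cyclic CL and 68.1, 31.8, 46.9 and 82.8 in the pregnant CL. The extremes of the cyclic group enclosed the pregnant group, and the log2 fold change of NCR1 was 0.10 (95% confidence interval -0.81 to 1.01, limma adjusted p = 0.968). CST7 (ENSBTAG00000004273), cystatin F, an inhibitor of the proteases that activate granzymes, ranged from 21.7 to 33.4 and from 23.0 to 40.5, a log2 fold change of 0.18 (limma adjusted p = 0.911, SE 0.32). For CST7 it was 0.0086 with pregnant replicate 4 left out and 0.32 with cyclic replicate 4 left out.

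The T-box transcription factors TBX21 and EOMES direct the cytotoxic and interferon-producing programs of T and NK cells. TBX21 (ENSBTAG00000014199) had 84.8, 152, 182 and 279 normalized counts in the cyclic CL and 221, 259, 301 and 251 in the pregnant CL. Cyclic replicate 4 lay within the pregnant range and the other 3 cyclic CL below it. The log2 fold change of TBX21 was 0.68 (limma adjusted p = 0.668, SE 0.32). EOMES (ENSBTAG00000016920) had 37.0, 72.4, 30.6 and 46.1 in the cyclic CL and 57.6, 60.7, 69.0 and 68.8 in the pregnant CL. Cyclic replicate 2 was the highest of the 8, the remaining cyclic CL were below the pregnant CL, and the log2 fold change of EOMES was 0.52 (limma adjusted p = 0.714, SE 0.31).

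The 9 members with an unadjusted limma p under 0.05 were refitted with each CL left out in turn. LAT, CD69, LCK, CD8B, UBASH3A and CD2 kept an unadjusted limma p under 0.05 in all 8 fits, with a largest value of 0.0325. CD3E, CD3G and CD8A did not, and reached 0.126, 0.130 and 0.123. CD3E and CD3G were under 0.05 in only 2 of the 8 fits, those that left out cyclic replicate 3 or 4, and CD8A in 3 of the 8. Over all 34 members, leaving out 1 CL moved the log2 fold change by over 1.5 times in 22, while in the other 12 (the 9 above, CD247, FOXP3 and EOMES) it moved by less.

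Ratios between members within a CL were taken as log2 of (normalized count + 1), and 11 pairs were compared by exact two-sided permutation of the 8 CL, for which the smallest possible p is 0.0286. The p of the 11 pairs ran from 0.257 to 1, and every Benjamini-Hochberg adjusted p over the 11 was 1. The log2 ratio of CD8A to CD4, cytotoxic over helper coreceptor, was 0.47 ± 0.30 (SD, n = 4) in the cyclic CL and 0.84 ± 0.56 (SD, n = 4) in the pregnant CL (exact permutation p = 0.257). The pregnant CL were divided, with replicates 2 and 4 at 1.36 and 1.26 and replicates 1 and 5 at 0.19 and 0.54. The difference of 0.37 was 0.20 with pregnant replicate 2 left out, 0.23 with pregnant replicate 4 left out and 0.59 with pregnant replicate 1 left out. For NCR1 to CD3E, NK receptor over T cell receptor chain, the log2 ratio was -3.40 ± 0.89 (SD, n = 4) and -3.86 ± 0.72 (SD, n = 4), a difference of -0.45 (exact permutation p = 0.514). It ranged from -0.70 with pregnant replicate 5 left out to -0.017 with cyclic replicate 2 left out, so its size rests on single CL. For CD3E to PTPRC, T cells over all leukocytes, it was -1.84 ± 0.36 (SD, n = 4) and -1.57 ± 0.12 (SD, n = 4) (exact permutation p = 0.286). For FOXP3 to CD4 it was 0.04 ± 0.19 (SD, n = 4) and 0.14 ± 0.54 (SD, n = 4) (exact permutation p = 0.83).

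**Figure D4:**
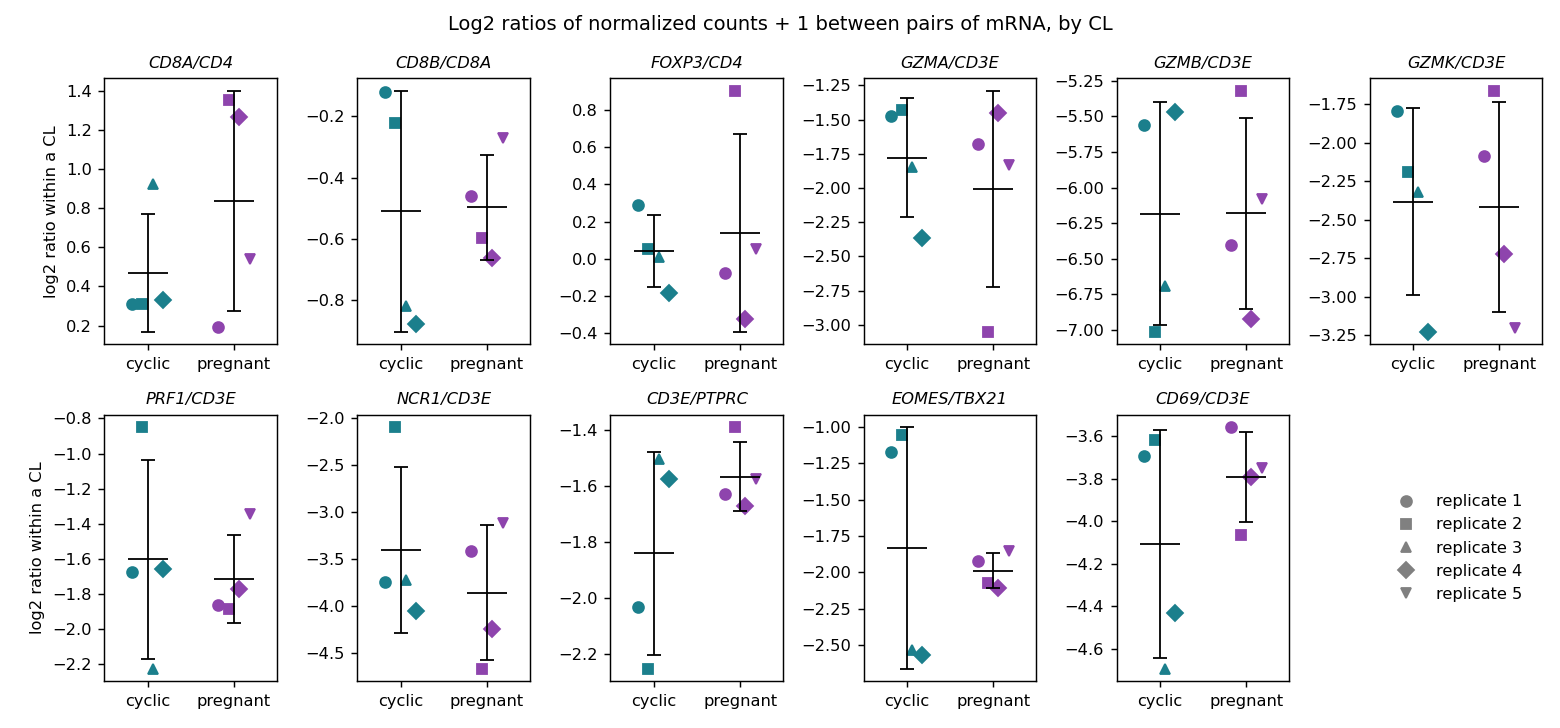
Log2 ratio of (normalized count + 1) between 2 mRNA in the same CL (vertical axes, each with its own range), by group, for 11 pairs, with 1 symbol per CL and the mean and SD of 4 CL as bars. The groups overlap in each pair, and the mean differences run from -0.45 for NCR1 over CD3E (-0.70 to -0.017 with 1 CL left out) to 0.37 for CD8A over CD4 (0.20 to 0.59).

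Other genes of the same pathway and cells were counted from 3 further lists. Of 24 partners of T cell receptor signaling found, 22 had a log2 fold change above 0, with a median of 0.16, and 0 passed the test. At an unadjusted limma p under 0.05, 2 were higher in pregnancy and 1 was lower. PTPN6 (ENSBTAG00000020294), the phosphatase SHP-1 of leukocytes, had 542, 816, 775 and 717 normalized counts in the cyclic CL and 956, 965, 948 and 925 in the pregnant CL, without overlap (log2 fold change 0.43, SE 0.14, limma adjusted p = 0.576). BCL10 (ENSBTAG00000013851), a widely expressed adapter to NF-kappaB, was the reverse, at 1197 to 1513 in the cyclic CL and 1002 to 1137 in the pregnant CL (-0.39, SE 0.11, limma adjusted p = 0.520).

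Of 32 further T cell genes found, 23 had a log2 fold change above 0, with a median of 0.17, and 0 passed, while 4 were higher and 1 was lower at an unadjusted limma p under 0.05. The 3 with the smallest p did not overlap between groups and were higher in pregnancy. CXCR6 (ENSBTAG00000015708), a chemokine receptor of tissue T cells, ranged from 122 to 212 normalized counts in the cyclic CL and from 231 to 313 in the pregnant CL (log2 fold change 0.62, SE 0.22, limma adjusted p = 0.593). CXCR3 (ENSBTAG00000014798), a receptor for interferon-induced chemokines, ranged from 14.5 to 30.6 and from 31.2 to 55.6 (0.94, SE 0.35, limma adjusted p = 0.614). TOX (ENSBTAG00000004954), a nuclear factor of T cell development and exhaustion, ranged from 77.2 to 118 and from 124 to 166 (0.64, SE 0.22, limma adjusted p = 0.593).

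Of 23 further NK and cytotoxic genes found, 15 were above 0, with a median of 0.15, and 0 passed, while 1 was higher and 3 were lower at an unadjusted limma p under 0.05. Their summed level lay the other way from this median, at 22925 to 36883 normalized counts in the cyclic CL and 14818 to 25333 in the pregnant CL. Not every gene that was lower at an unadjusted limma p under 0.05 is named here. The genes named below hold at most 58.0 normalized counts in a CL and add little to this sum. The genes that make up most of the sum are not named here. FASLG (ENSBTAG00000032808), the death ligand, ranged from 20.8 to 41.5 normalized counts in the cyclic CL and from 52.4 to 58.0 in the pregnant CL (log2 fold change 0.87, SE 0.30, limma adjusted p = 0.593). A pair of lectin-like receptors of NK cells, both with few reads, lay the other way. KLRF1 (ENSBTAG00000037534) had 10.9, 32.8, 5.93 and 5.89 in the cyclic CL and 0.959, 1.99, 3.68 and 4.30 in the pregnant CL (-1.76, SE 0.62, limma adjusted p = 0.593), with 1 read at the lowest. KLRD1 (ENSBTAG00000046389), CD94, had 15.2, 21.2, 13.8 and 30.4 and then 1.92, 8.96, 6.44 and 14.0 (-1.42, SE 0.54, limma adjusted p = 0.614).

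Markers of other cells were counted beside the members, and 0 genes of these 6 lists passed, with 1, CXCR2, at an unadjusted limma p under 0.05. B and plasma cell markers had a median log2 fold change of 0.31, 7 of 8 above 0, with summed levels of 889 to 1542 normalized counts in the cyclic CL and 1378 to 1516 in the pregnant CL. Neutrophil markers had a median of 0.22, 7 of 8 above 0, with 1623 to 2056 and 1602 to 2554. Among them CXCR2 (ENSBTAG00000038042), a receptor for neutrophil chemokines, ranged from 11.96 to 27.7 in the cyclic CL and from 34.96 to 58.5 in the pregnant CL (1.19, SE 0.35, limma adjusted p = 0.542). CXCR2 was on 2 lines of the table, and only the one with the higher mean was looked at. Macrophage markers had a median of -0.05, with 5 of 13 above 0, and endothelial markers of -0.08, with 3 of 10 above 0. Steroidogenic markers had a median of 0.20, with 7 of 8 above 0. Of 12 markers of circulating blood, 3 were found, with summed levels of 362 to 421 and 390.1 to 486, and their median was 0.20. The part of blood, B cells or neutrophils in the levels of T and NK cell mRNA was not tested.

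**Figure D5:**
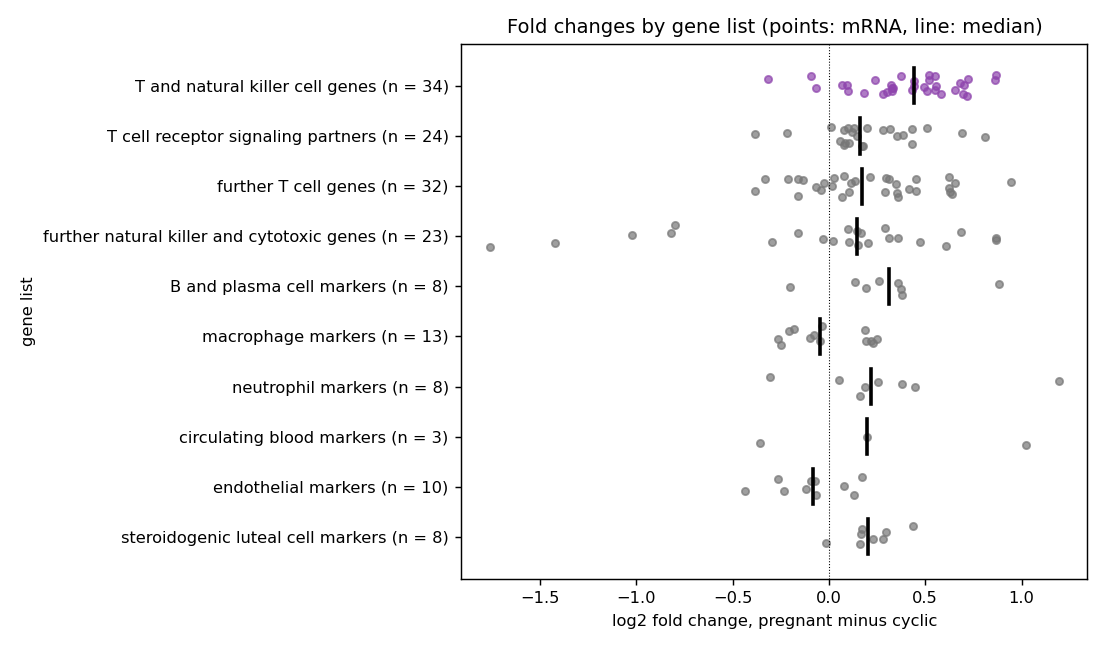
Log2 fold change (horizontal axis, pregnant minus cyclic) of each mRNA found in 10 lists (vertical axis), with 1 point per mRNA, a vertical bar at the median of the list and n the number found. The median is 0.44 for the 34 T and NK cell mRNA, 0.31 for B and plasma cell markers, 0.20 for steroidogenic markers and -0.05 for macrophage markers.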

How the data were processed

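Total RNA from 8 CL was sequenced by a strand-specific protocol, and 1 table of 13861 genes was analysed. The deposited values are signal, never negative, in which the authors had scaled the gene reads of a CL by a single factor. Aligner, counter, build and annotation: not given in the sources used here, so no coordinates are printed. Neighbouring genes were read from a RefSeq table of the assembly ARS-UCD2.0 (symbols matched for all 34 members). Identifiers are those of the table, 12738 of them Ensembl.

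Dividing by the value of 1 read gave whole reads for 99.9% of values, within 0.01. The number of reads limits the precision of the low members. No pair of CL held the same library (chi-square per degree of freedom 61.0 to 138).

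A minimum mean of 1 removed no gene. Values were tested as log2(value + 1), a scale that understates changes of low genes, with limma 3.58.1 (trend, R 4.3.3) over all 8 CL without covariates, Benjamini-Hochberg adjustment and a threshold of 0.05. The limma p-values set a group difference against the spread among CL of the same group. That spread holds variation of animal, collection and library together. For each gene it was first drawn toward a trend over all genes. For a gene with tight groups, such as LAT, the spread used was therefore larger than its own. Ratios were tested by exact permutation over 70 labelings (scipy 1.17.1). Of 12 pairs 11 were computed, since CTLA4 was not analysed here. Python 3.11.15, numpy 2.4.6, pandas 2.3.3 and matplotlib 3.10.9 were used. The fits were tested on simulated data.

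Every member found is named. Values in each CL are given for members with an unadjusted p under 0.05 or no overlap, the 2 most abundant of each role, and CD4, CD8A, FOXP3, NCR1, PRF1 and GZMB. Of each other list, up to 3 genes with the smallest p could be named, and a few single genes are left out of the text. The members and lists were chosen with earlier results of these data known. Alternatives were pseudocounts (0.1 and 0.5), a minimum mean of 5 or no minimum, quantile normalization, edgeR 4.0.16, DESeq2 1.42.0 and limma-voom on recovered reads, each CL left out, a replicate block, and an adjusted p under 0.10.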

Additional observations from a re-analysis of the deposited data

Results flagged for a closer look

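In 7 of 68 sets of 4 CL (34 members in 2 groups) the most extreme CL stood apart from the other 3 by Dixon's criterion at the 95% level. The nominal rate of about 1 in 20 holds for independent normal values, which members of the same cells are not. The rate over all genes was not counted, so no excess is claimed. Pregnant replicate 4 stood above its group for CD3D (448 normalized counts, others 276 to 304), ZAP70 (426, others 289 to 297) and PTPRC (2880, others 2153 to 2273). Pregnant replicate 2 stood below its group for CD4 (118, others 172 to 180.3) and GNLY (51.8, others 263 to 286). Cyclic replicate 4 stood above its group for THEMIS (35.3, others 19.6 to 21.7) and CST7 (33.4, others 21.7 to 23.2). None of the 7 sets belongs to the 9 members with an unadjusted limma p under 0.05.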

How the results depend on the processing

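No member was called by an adjusted p under 0.05 in any alternative except DESeq2, which called 1 (LAT), and none at an adjusted p under 0.10 in limma. The number of members with an unadjusted p under 0.05 was 6 to 16 with 1 CL left out, and the median log2 fold change 0.30 to 0.56. Same-numbered CL of the 2 groups did not deviate together over all genes (correlations 0.02, -0.05 and 0.01). Such correlations cannot settle whether the numbers mark pairs or a shared collection, and that was not tested. With the replicate block 12 members had a p under 0.05, the median was 0.48, and NCR1 was -0.075 (log2 ratios CD8B/CD8A -0.17, GZMB/CD3E -0.20, GZMK/CD3E 0.25). The share over all genes at that p was not counted with the block or with 1 CL left out, so these counts of members have no background. Direction held in 28 of the 34 members under all alternatives. It turned for CD7 (0.12) and GNLY (0.019) in edgeR and DESeq2. With 1 CL left out the log2 fold change ranged from -0.29 to 0.56 for CD28, -0.49 to 0.25 for CD7, -0.42 to 0.50 for GNLY, -0.15 to 0.36 for NCR1, -0.14 to 0.22 for NKG7 and -0.079 to 0.74 for TRAT1. The difference in log2 ratio ranged from -0.11 to 0.14 for CD8B/CD8A, -0.40 to 0.10 for EOMES/TBX21, -0.16 to 0.25 for FOXP3/CD4, -0.42 to 0.12 for GZMA/CD3E, -0.29 to 0.25 for GZMB/CD3E, -0.32 to 0.23 for GZMK/CD3E and -0.32 to 0.14 for PRF1/CD3E. With a pseudocount of 0.1 the GZMB/CD3E difference was 0.11 in place of 0.002. The cause of these turns was not tested, and depth limits CD28 and GZMB.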

Other observations

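Relatives of members that other cells use were looked up after the values of the members were seen. SYK, the kinase that takes the place of ZAP70 in B and myeloid cells, had 289 ± 45.6 normalized counts (SD, n = 4) in the cyclic CL and 247 ± 79.6 (SD, n = 4) in the pregnant CL, a log2 fold change of -0.27 (limma adjusted p = 0.817, SE 0.25). LAT2, the related adapter of B and myeloid cells, had 254 ± 68.2 (SD, n = 4) and 212 ± 35.1 (SD, n = 4), a log2 fold change of -0.23 (limma adjusted p = 0.837, SE 0.25). For UBASH3B, the broadly expressed relative of UBASH3A, the means were 502 ± 122 (SD, n = 4) and 798 ± 240.2 (SD, n = 4), with a log2 fold change of 0.64 (limma adjusted p = 0.625, SE 0.25). Pregnant replicate 5, at 466, lay within the cyclic range and the other 3 pregnant CL above it. SKAP2, the relative of SKAP1 outside T cells, had 1304, 2621, 6488 and 1196 in the cyclic CL and 1047, 696, 1720.4 and 974 in the pregnant CL, a log2 fold change of -1.11 (limma adjusted p = 0.658, SE 0.49). Cyclic replicate 3 held the highest SKAP2. LYN, a Src family kinase of myeloid and B cells, had a log2 fold change of -0.00 (limma adjusted p = 0.997). No test of the difference between a member and its relative was made.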
